A study of Mus musculus with 6 samples.

Results

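The Hox clusters A to D are 4 runs of homeobox genes on mouse chromosomes 6, 11, 15 and 2. Members were all protein-coding genes named Hox with a cluster letter a to d and a number: 39 genes in the GENCODE M21 annotation of GRCm38, of which 38 were among the 38561 gene IDs of the count tables. Cluster A gave 11 of them, cluster B 10, cluster C 9 and cluster D 8; Hoxd4 was not analysed here. RNA sequencing covered 6 libraries in 3 groups of 2. Osteosarcoma, a bone-forming tumour, was taken from the right tibia (osteosarcoma 1) and from the lumbar spine (osteosarcoma 2), and soft tissue sarcomas 1 and 2 from subcutaneous tissue. NG2 cells 1 and 2 were sorted with an antibody to NG2, a proteoglycan of pericytes, from skeletal muscle, where the label places them among perivascular cells. All 3 groups came from NG2-Cre;p53flox/flox mice of mixed background, in which Cre recombinase under the promoter of the NG2 gene (Cspg4) deletes floxed p53. The NG2 cells carried the same alleles as the tumours and were therefore no wild-type control. No age was given in the labels used here, and none said that the libraries of a group came from separate animals, so p-values measured the spread between these samples only.

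Hox genes encode transcription factors that give cells of the embryo their position along the head-to-tail axis and, for the high-numbered genes of clusters A and D, along the limb. Within a cluster, the genes are ordered on the chromosome as they are ordered in the body: low numbers act towards the head, middle numbers in the neck and thorax, and high numbers in the lumbar, sacral and tail regions and in the distal limb. Genes of the same number in different clusters are paralogues with overlapping roles, and adult mesenchymal cells often keep the Hox pattern of the site where they formed.

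The libraries held between 27693585 and 58126832 reads assigned to genes, and normalised read counts are given as CPM, a count relative to the size of its library, scaled by TMM factors. Where levels of different Hox genes are compared, CPM was divided by exon length (CPM per kb). Pairs of values are in the order of the library numbers, so that the tibia precedes the lumbar spine. Cspg4 itself was measured at 118 and 37.7 CPM in the osteosarcomas, 188 and 88.7 CPM in the soft tissue sarcomas, and 38.6 and 30.6 CPM in the NG2 cells. The 7 pericyte markers were detected in all 6 libraries and summed to 300 and 780 CPM in the osteosarcomas, 479 and 365 CPM in the soft tissue sarcomas, and 898 and 1430 CPM in the NG2 cells, where Rgs5 alone made up 772 and 1290 CPM. Rgs5 was called lower in both tumour groups than in NG2 cells, and Pdgfrb and Mcam were called higher in osteosarcoma. Osteoblast markers summed to 34800 and 38600 CPM in the osteosarcomas, 2440 and 1840 CPM in the soft tissue sarcomas, and 96.3 and 103 CPM in the NG2 cells. Trp53, the floxed gene, was lower than in NG2 cells by log2 fold changes of -1.69 ± 0.30 in osteosarcoma and -1.65 ± 0.30 in soft tissue sarcoma (SE, n = 2 each, edgeR adjusted p = 0.0172 and 0.0199), a count over the whole gene that does not show which exons were deleted.

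Total Hox RNA was highest in the tumours, and its division among the clusters differed between the groups. Summed over the 38 genes, the level was 59.7 and 65.2 CPM per kb in the osteosarcomas, 43.9 and 66.5 in the soft tissue sarcomas, and 14.4 and 30.3 in the NG2 cells. All 4 tumour libraries lay above both NG2 libraries. Cluster A supplied 59.3% and 63.7% of this sum in the osteosarcomas, 22% and 2.68% in the soft tissue sarcomas, and 56.4% and 58.9% in the NG2 cells. Cluster C supplied 21.6% and 21.4% in the osteosarcomas, 54.4% and 69.6% in the soft tissue sarcomas, and 5.55% and 2.71% in the NG2 cells. The 3 groups did not overlap in the share of cluster C. Cluster D supplied 0.932% and 1.18% in the osteosarcomas, below the 12.3% and 8.29% of the soft tissue sarcomas and the 17.6% and 11% of the NG2 cells. Cluster B supplied 18.2% and 13.7% in the osteosarcomas, 11.3% and 19.4% in the soft tissue sarcomas, and 20.4% and 27.4% in the NG2 cells, with overlap between the tumour groups. These are descriptions over 2 libraries a group, with no test. The cluster with the largest share in each library was the same with plain CPM and with the 13 members left out whose exons overlap another annotated gene over more than 5% of their length. The sizes of the shares moved more: without those 13 members, the 2 osteosarcomas stood further apart. Cluster A then supplied 44.1% and 63.9% in the osteosarcomas, and cluster C 28.4% and 17.1%.

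**Figure D1:**
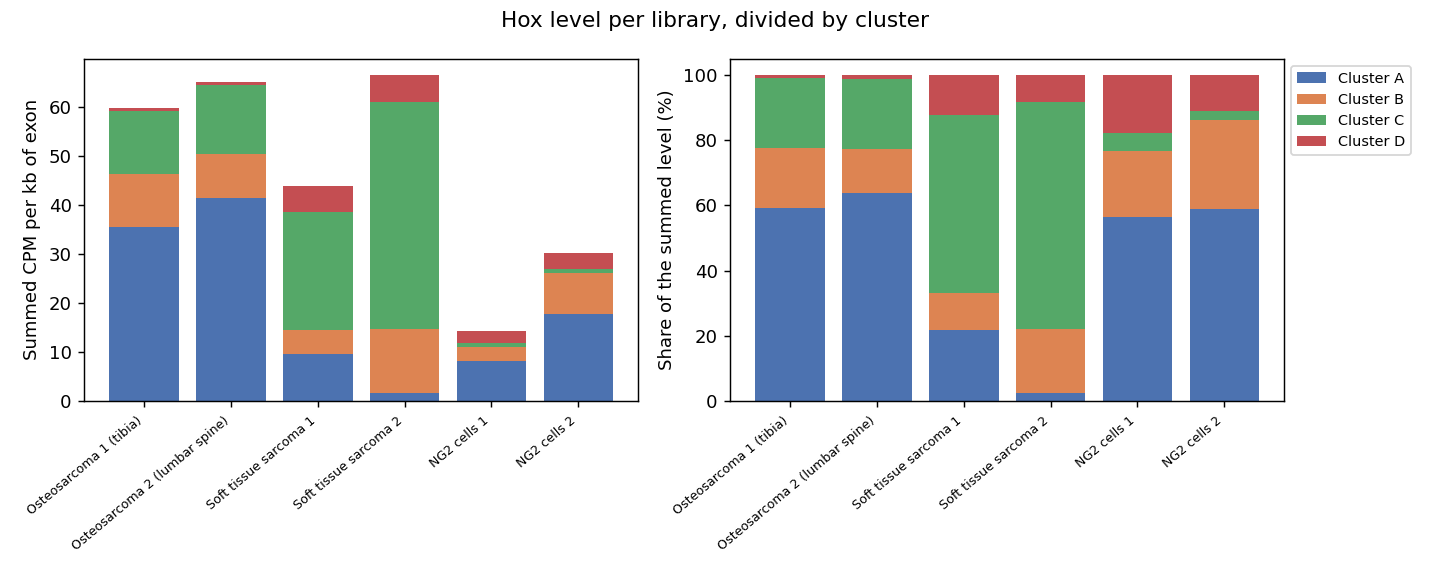
Summed level of the 38 Hox genes in each library (left, CPM per kb of exon) and the share of each cluster in that sum (right, percent), with 1 bar per library. Cluster A fills 59.3% and 63.7% of the osteosarcoma bars, and cluster C 54.4% and 69.6% of the soft tissue sarcoma bars.

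By paralogue number, genes 4 to 8, which pattern the neck and thorax, held most of the Hox level in every library: 63.5% and 58.2% in the osteosarcomas, 89% and 51.1% in the soft tissue sarcomas, and 80.3% and 68.2% in the NG2 cells. Genes 9 to 13, which act from the thorax to the tail and in the distal limb, held 14.5% in the tibia osteosarcoma and 32.2% in that of the lumbar spine. The same genes held 5.1% and 46.8% in the soft tissue sarcomas and 10.1% and 21.1% in the NG2 cells. The highest gene of this sum was Hoxc9 in the tibia osteosarcoma and in soft tissue sarcoma 1, Hoxc10 in soft tissue sarcoma 2, and Hoxa10 in the lumbar spine osteosarcoma and both NG2 libraries. For genes 9 to 13 the ranges of all 3 groups overlapped.

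**Figure D2:**
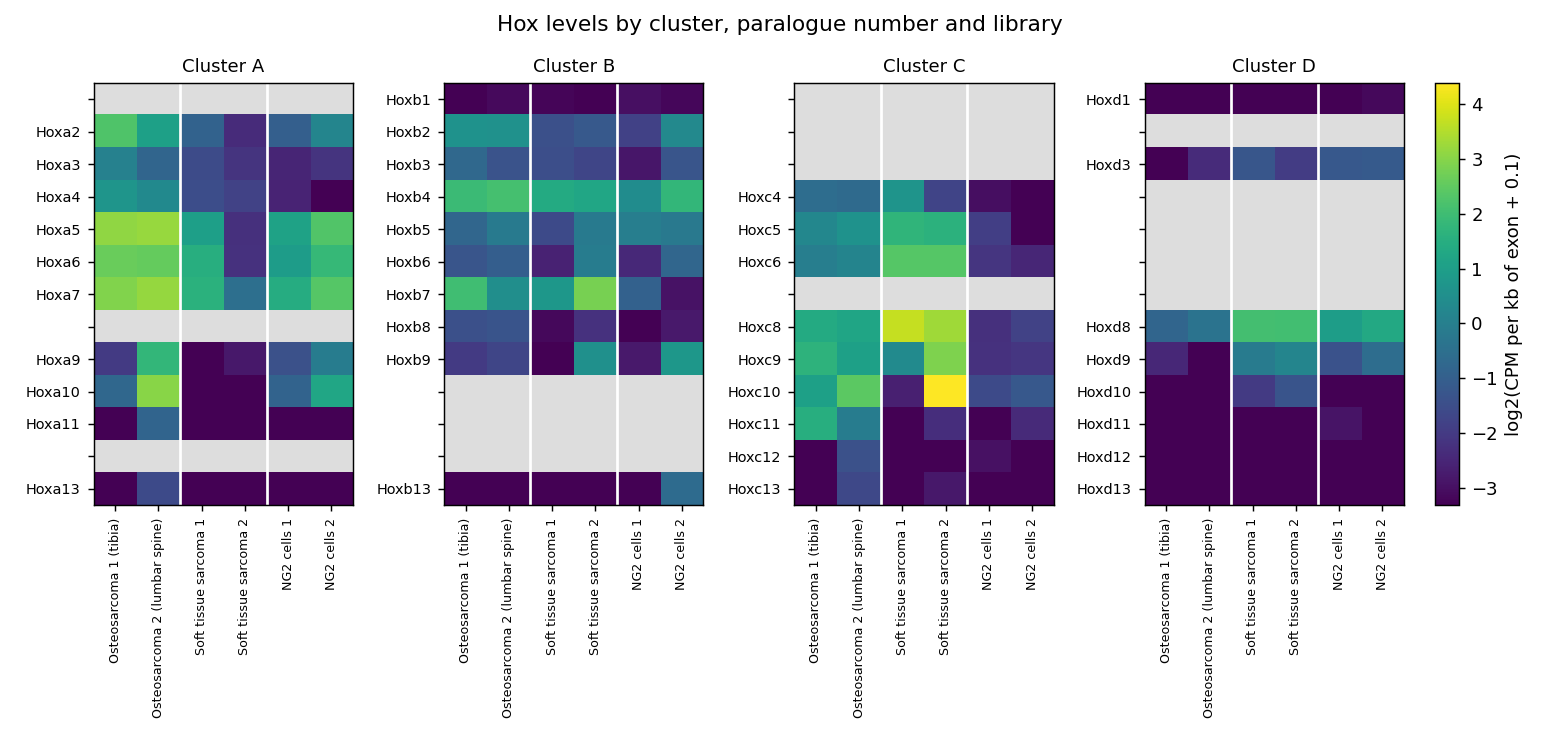
Level of Hox genes, in rows by paralogue number within each cluster, in the 6 libraries (columns), as log2 of CPM per kb plus 0.1. Grey rows are numbers with no gene plotted; Hoxa5 to Hoxa7 are brightest in the osteosarcomas, Hoxc8 in the soft tissue sarcomas and Hoxc10 in soft tissue sarcoma 2, and Hoxd11 to Hoxd13 are dark throughout.

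In cluster A, 9 of 11 genes had enough counts for the test, and Hoxa5 to Hoxa7 were its leading genes. Hoxa5, which patterns the neck and upper thorax and the lung, stood at 15.9 and 17.1 CPM in the osteosarcomas, 3.64 and 0.202 CPM in the soft tissue sarcomas, and 3.88 and 8.99 CPM in the NG2 cells. Hoxa7 stood at 21.6 and 25.5 CPM in the osteosarcomas, 8.44 and 1.72 CPM in the soft tissue sarcomas, and 7.56 and 14.5 CPM in the NG2 cells. Per kb of exon, Hoxa5 was the highest Hox gene of both osteosarcomas (8.48 and 9.13 CPM per kb) and Hoxa7 the highest of both NG2 libraries (2.63 and 5.03 CPM per kb). Hoxa6 followed at 5.31 and 5.12 CPM in the osteosarcomas, 2.42 and 0.101 CPM in the soft tissue sarcomas, and 1.61 and 3.05 CPM in the NG2 cells. For all 3 genes both osteosarcomas lay above every other library, and soft tissue sarcoma 2 was the lowest library.

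Genes towards the head end of cluster A were likewise highest in the osteosarcomas, and more so in the tibia. Hoxa2, which shapes the skeleton of the second pharyngeal arch, stood at 8.36 and 3.52 CPM in the osteosarcomas, 0.772 and 0.168 CPM in the soft tissue sarcomas, and 0.72 and 1.86 CPM in the NG2 cells. Hoxa3, a gene of pharyngeal organ formation, stood at 5.7 and 2.84 CPM in the osteosarcomas, 1.44 and 0.741 CPM in the soft tissue sarcomas, and 0.443 and 0.734 CPM in the NG2 cells. Hoxa4 was at 2.41 and 1.85 CPM in the osteosarcomas, and at most 0.403 CPM in any other library. In each of these 3 genes the osteosarcomas did not overlap the other 4 libraries.

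The lumbar-end genes of cluster A differed between the tibia and the lumbar spine osteosarcoma, 1 library each, and were nearly absent from the soft tissue sarcomas. Hoxa9, also known for its role in blood progenitors, stood at 0.815 and 18.8 CPM in the osteosarcomas, 0 and 0.236 CPM in the soft tissue sarcomas, and 1.52 and 4.68 CPM in the NG2 cells. Hoxa10, whose paralogue group suppresses ribs on lumbar vertebrae, stood at 1.63 and 26.2 CPM in the osteosarcomas and 1.47 and 7.47 CPM in the NG2 cells, with 0 counts in both soft tissue sarcomas. A count of 0 allowed up to 3 counts, or 0.0503 and 0.101 CPM, in those libraries, a limit that covers counting error only because PCR copies are not independent molecules. Hoxa11, which patterns the sacrum and the lower limb segment, had 30 counts (1.07 CPM) in the lumbar spine osteosarcoma and 0 in the other 5 libraries. Hoxa13, a gene of digits and the urogenital tract, had 16 counts (0.569 CPM) in that same library and 0 elsewhere. Exons of Hoxa11 overlap those of the antisense gene Hoxa11os over 35% of their length. Hoxa11os had 0 and 15 counts in the osteosarcomas, 0 in both soft tissue sarcomas, and 0 and 41 counts in the NG2 cells, so the counts of these genes are uncertain.

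The 250 bases before the RefSeq start are shown for 3 members whose levels set the groups apart: Hoxa5, the leading gene of the osteosarcomas; Hoxa10, at 0 in the soft tissue sarcomas; and Hoxd8, the leading gene of cluster D. They are read from the RefSeq promoter table of GRCm38.p6, which matched 21 of the 38 members, at chr6:52204588-52204837 (minus strand), chr6:52240855-52241104 (minus strand) and chr2:74704365-74704614 (plus strand). Capitals mark CG dinucleotides.
Hoxa5: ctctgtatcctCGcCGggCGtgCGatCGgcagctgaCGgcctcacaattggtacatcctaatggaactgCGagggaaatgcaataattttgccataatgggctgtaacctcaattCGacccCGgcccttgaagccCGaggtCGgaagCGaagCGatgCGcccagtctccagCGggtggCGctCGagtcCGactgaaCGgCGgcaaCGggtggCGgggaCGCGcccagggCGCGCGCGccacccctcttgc
Hoxa10: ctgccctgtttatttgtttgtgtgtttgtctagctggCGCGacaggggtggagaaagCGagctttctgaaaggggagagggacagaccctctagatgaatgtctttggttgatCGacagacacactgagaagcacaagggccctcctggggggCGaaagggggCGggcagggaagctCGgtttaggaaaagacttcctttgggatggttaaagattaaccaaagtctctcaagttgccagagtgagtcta
Hoxd8: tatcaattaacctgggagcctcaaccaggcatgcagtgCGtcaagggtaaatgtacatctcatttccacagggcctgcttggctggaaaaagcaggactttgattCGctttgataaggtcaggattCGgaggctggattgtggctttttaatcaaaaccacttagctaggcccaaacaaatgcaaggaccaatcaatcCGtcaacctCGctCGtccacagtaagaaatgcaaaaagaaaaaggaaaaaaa
No annotated exon overlaps these windows. The Hoxa5 window holds 28 CG dinucleotides at a GC content of 63.6%, that of Hoxa10 holds 7 at 51.6%, and that of Hoxd8 holds 6 at 44.4%, while the median over 32851 promoters of this length was 6. On either strand, none of the 3 held the homeodomain core TAATTA (found in 4.84% of all promoters), the PBX-HOX form TGATNNAT (7.68%), the MEIS form TGACAG (15.9%), TTTATG, a form bound by high-numbered Hox proteins (10.8%), or TATAAA (12.4%). TTTATG read on the other strand is CATAAA, which differs from TATAAA in its first letter.

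In cluster B, 8 of 10 genes were tested, and Hoxb4 and Hoxb7 were the leading genes per kb of exon. Hoxb4, known for its effect on blood stem cells, stood at 9.53 and 10.9 CPM in the osteosarcomas, 6.44 and 5.83 CPM in the soft tissue sarcomas, and 3.21 and 8.64 CPM in the NG2 cells. Hoxb7 stood at 6.16 and 1.99 CPM in the osteosarcomas, 2.45 and 10.7 CPM in the soft tissue sarcomas, and 0.665 and 0.0458 CPM in the NG2 cells. All 4 tumour libraries held more Hoxb7 than both NG2 libraries, while the tumour groups overlapped. Hoxb2, a hindbrain gene, stood at 4.95 and 4.91 CPM in the osteosarcomas, 0.94 and 1.21 CPM in the soft tissue sarcomas, and 0.637 and 3.97 CPM in the NG2 cells. Its exons overlap those of the antisense gene Hoxb3os over 27.3% of their length, and those of Hoxb3 do so over 52.9%.

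The other members of cluster B were lower or rested on single libraries. Hoxb3 ranged from 0.166 to 2.14 CPM over the 6 libraries, Hoxb5 from 0.638 to 2.47 CPM and Hoxb6 from 0.134 to 1.65 CPM, and the groups overlapped in Hoxb5 and Hoxb6. Hoxb8 was at 0.701 and 0.782 CPM in the osteosarcomas, 0.0336 and 0.303 CPM in the soft tissue sarcomas, and 0 and 0.115 CPM in the NG2 cells. Hoxb9, which acts on the thoracic ribs and sternum, was at 0.379 and 0.533 CPM in the osteosarcomas, 0 and 3.54 CPM in the soft tissue sarcomas, and 0.111 and 4.08 CPM in the NG2 cells. The second library of the soft tissue sarcomas and of the NG2 cells was thus the high one for Hoxb9. Hoxb13, a gene of the tail end and the prostate, had 53 counts (1.21 CPM) in NG2 cells 2 and 0 in the other 5 libraries. Hoxb1 had at most 2 counts in any library.

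In cluster C, 7 of 9 genes were tested, and the middle of the cluster was low in NG2 cells and high in tumours. Hoxc8, which patterns the thoracic skeleton, stood at 7.13 and 6.29 CPM in the osteosarcomas, 36.5 and 27.8 CPM in the soft tissue sarcomas, and 0.305 and 0.527 CPM in the NG2 cells. Hoxc6, a gene of the upper thorax, stood at 2.14 and 2.45 CPM in the osteosarcomas, 12.2 and 12 CPM in the soft tissue sarcomas, and 0.305 and 0.183 CPM in the NG2 cells. Hoxc5 stood at 3.37 and 4.41 CPM in the osteosarcomas, 9.81 and 9.2 CPM in the soft tissue sarcomas, and 0.526 and 0 CPM in the NG2 cells. In these 3 genes the groups did not overlap, with the soft tissue sarcomas highest, the osteosarcomas between, and the NG2 cells lowest. Hoxc9, another thoracic gene, stood at 7.41 and 4.84 CPM in the osteosarcomas, 2.92 and 18 CPM in the soft tissue sarcomas, and 0.277 and 0.321 CPM in the NG2 cells. Hoxc4 stood at 1.5 and 1.39 CPM in the osteosarcomas, 3.81 and 0.505 CPM in the soft tissue sarcomas, and 0.0554 and 0 CPM in the NG2 cells. For Hoxc4 and Hoxc9 the tumour groups overlapped and both lay above the NG2 cells.

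Among the lumbar-end genes of cluster C, Hoxc10 set the 2 soft tissue sarcomas apart. Hoxc10, a gene of the lumbar region and hindlimb, had 7 counts (0.117 CPM) in soft tissue sarcoma 1 and 1178 counts (39.7 CPM) in soft tissue sarcoma 2, where it was the highest of all Hox genes at 20.8 CPM per kb. It stood at 3.79 and 10.3 CPM in the osteosarcomas and 0.443 and 0.642 CPM in the NG2 cells. Hoxc10 and Hoxc5 share exon sequence (8.7% of the exon length of Hoxc10 and 5.37% of that of Hoxc5). Hoxc11, also expressed in the developing hindlimb, stood at 5.57 and 1.71 CPM in the osteosarcomas, 0 and 0.202 CPM in the soft tissue sarcomas, and 0 and 0.183 CPM in the NG2 cells. Both osteosarcomas thus lay above the other 4 libraries for Hoxc11. Hoxc12 had 8 counts in the lumbar spine osteosarcoma and 1 in NG2 cells 1, and Hoxc13, a gene of hair and nails, had 15 counts in the lumbar spine osteosarcoma and 3 in soft tissue sarcoma 2.

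**Figure D3:**
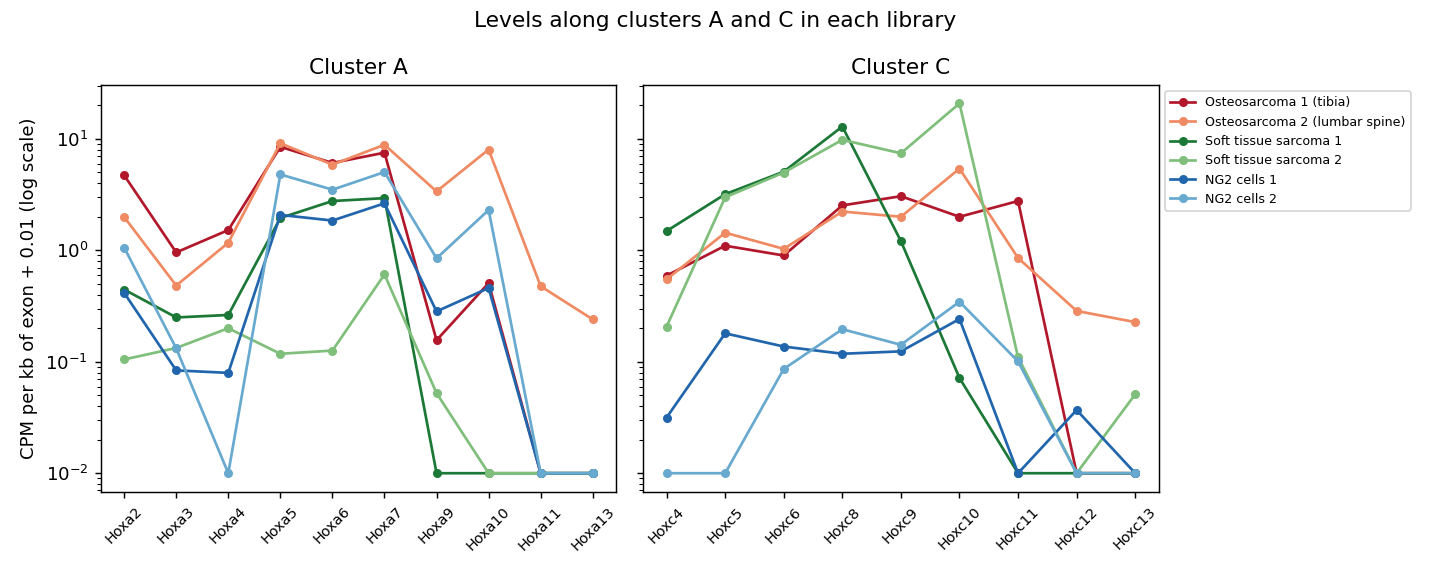
Level of genes along cluster A (left) and cluster C (right) in each of the 6 libraries, in CPM per kb of exon plus 0.01 on a log scale. Beyond Hoxa7 the tibia osteosarcoma falls away from that of the lumbar spine, and at Hoxc10 soft tissue sarcoma 1 (0.0615 CPM per kb) lies far below soft tissue sarcoma 2 (20.8 CPM per kb).

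Cluster D was the only cluster in which all tested members with counts in the NG2 cells were lower in both osteosarcomas than in every other library. It had 4 tested genes of 8. Hoxd8, expressed in the trunk and proximal limb, stood at 1.31 and 1.85 CPM in the osteosarcomas, 11.3 and 11.1 CPM in the soft tissue sarcomas, and 5.15 and 6.58 CPM in the NG2 cells. Hoxd9, active in the lumbar region and limb, stood at 0.171 and 0 CPM in the osteosarcomas, 1.76 and 2.19 CPM in the soft tissue sarcomas, and 0.61 and 1.24 CPM in the NG2 cells. The 3 groups did not overlap for either gene. Hoxd3, a neck gene, stood at 0 and 0.391 CPM in the osteosarcomas, 1.33 and 0.674 CPM in the soft tissue sarcomas, and 1.41 and 1.47 CPM in the NG2 cells; 62.8% of its exon length overlaps other annotated genes. Hoxd10 had 16 counts in each soft tissue sarcoma and 0 in the other 4 libraries. Hoxd11 had 5 counts in NG2 cells 1, Hoxd1 had 1 count in NG2 cells 2, and Hoxd12 and Hoxd13, a gene of the digits, had 0 in all 6 libraries, where 3 counts correspond to 0.0503 to 0.107 CPM.

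The first comparison, osteosarcoma with NG2 cells, set the bone tumours against the sorted cells, which the design text calls pericytes. In osteosarcoma genes of cluster C rose, and 1 member of cluster D fell. Hoxc8 rose 15.9-fold (log2 fold change 4.0 ± 0.50, SE, n = 2 each, adjusted p = 0.0082), Hoxc9 20.3-fold (4.34 ± 1.03, adjusted p = 0.0352) and Hoxc6 9.35-fold (3.22 ± 0.61, adjusted p = 0.0204). Hoxd8 fell 3.72-fold (-1.90 ± 0.52), with an adjusted p of 0.04998 that lies just inside the threshold of 0.05. In edgeR's quasi-likelihood test, 4 of the 28 tested members were called higher, where 10.5% of all tested genes were, and 1 was called lower, where 11% were. The 5 calls were 17.9% of the tested members, close to the 21.5% of all 19024 tested genes. The remaining 23 tested members did not pass, and 10 members were not tested because of low counts. The median log2 fold change of the tested members was 1.65, beside 0.04 for all tested genes. Groups did not overlap, with osteosarcoma higher, in 18 of 28 members (32.7% of all tested genes) and with osteosarcoma lower in 3 (32.4%). Hoxb8 and Hoxc11, counted in the 18, would not have passed the filter on low counts without the osteosarcomas, so they add nothing to the 18. With each of the 6 libraries left out in turn, Hoxc8 passed every time (adjusted p up to 0.036), Hoxc9 in 3 of 6 (up to 0.136), Hoxc6 in 2 (up to 0.073) and Hoxd8 in 0 (0.0754 to 0.141). The number of members called was 1 without NG2 cells 2, 2 without the tibia osteosarcoma or without soft tissue sarcoma 2, 3 without NG2 cells 1 or without soft tissue sarcoma 1, and 5 without the lumbar spine osteosarcoma.

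Among the members that did not pass, 4 of the 7 tested genes of cluster C had positive values. Of the leading genes, Hoxa5 had a log2 fold change of 1.36 ± 1.16 (adjusted p = 0.425), Hoxa6 of 1.16 ± 1.27 (adjusted p = 0.535) and Hoxa7 of 1.09 ± 0.78 (adjusted p = 0.341). Hoxb2 was at 1.10 ± 0.95 (adjusted p = 0.432), Hoxb4 at 0.78 ± 0.60 (adjusted p = 0.379) and Hoxb7 at 3.53 ± 1.44 (adjusted p = 0.126). None of these 6 passed the test. Of paralogues 10 and 11, Hoxa10 was at 1.63 ± 1.45 (adjusted p = 0.452), Hoxc10 at 3.69 ± 2.05 (adjusted p = 0.234) and Hoxc11 at 5.23 ± 2.14 (adjusted p = 0.127). Hoxa10 changed sign, to -1.44, without the lumbar spine library. Hoxd3 was at -2.93 ± 1.70 (adjusted p = 0.252) and Hoxd9 at -3.28 ± 1.40 (adjusted p = 0.14). Hoxd10 had no counts in either group, and no fold is given.

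The second comparison, soft tissue sarcoma with NG2 cells, used the same NG2 libraries as the first. Hoxc8 rose 76.3-fold (6.25 ± 0.55, adjusted p = 0.0074), Hoxc6 49.2-fold (5.62 ± 0.68, adjusted p = 0.00988) and Hoxc9 34.6-fold (5.11 ± 1.06, adjusted p = 0.0275). Hoxa10 fell (edgeR adjusted p = 0.0497), with 0 counts in the soft tissue sarcomas against 53 and 326 in the NG2 cells. Taking 3 counts for the whole group instead of none, it was at least 133-fold lower than the mean of the NG2 cells. That mean rests mostly on NG2 cells 2 (1.47 and 7.47 CPM), so the bound does not hold for NG2 cells 1 alone. The edgeR test thus called 3 of 28 members higher, where 9.89% of all tested genes were, and 1 lower, where 9.4% were; 24 did not pass. These 4 calls were 14.3% of the tested members, beside 19.3% of all tested genes. The median log2 fold change was 0.78 for the members and 0.00 for all tested genes. Groups did not overlap, with soft tissue sarcoma higher, in 12 members (35.8% of all tested genes) and with it lower in 4 (34.6%). Hoxd10, 1 of the 12, had counts only in the soft tissue sarcomas and passed the filter on low counts through them alone. It could only lie higher, so it adds nothing to the 12. With either soft tissue sarcoma library left out, which leaves 1 library in that group, no call held for a member or for any other gene. Without NG2 cells 2, the calls of Hoxc9 and Hoxa10 were lost. Over the 6 omissions the adjusted p reached 0.061 for Hoxc8, 0.0818 for Hoxc6, 0.144 for Hoxc9 and 0.19 for Hoxa10.

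Outside these 4 genes, the values in soft tissue sarcoma went in different directions by cluster. Of the 9 tested genes of cluster A, 6 had negative log2 fold changes against NG2 cells, among them Hoxa5 at -1.73 ± 1.17 (adjusted p = 0.328), Hoxa6 at -0.87 ± 1.27 (adjusted p = 0.651) and Hoxa7 at -1.11 ± 0.78 (adjusted p = 0.341). In cluster B, Hoxb2 was at -1.10 ± 0.95 (adjusted p = 0.438), Hoxb4 at 0.05 ± 0.60 (adjusted p = 0.963) and Hoxb7 at 4.21 ± 1.48 (adjusted p = 0.0936). Cluster C had 6 positive values of 7, with Hoxc10 at 5.18 ± 2.19 (adjusted p = 0.143) and Hoxc11 at -0.03 ± 1.77 (adjusted p = 0.993). Without soft tissue sarcoma 2, the value of Hoxc10 turned to -2.16. In cluster D, Hoxd8 was at 0.93 ± 0.50 (adjusted p = 0.232), Hoxd9 at 1.09 ± 1.26 (adjusted p = 0.563) and Hoxd3 at -0.52 ± 1.55 (adjusted p = 0.834). Hoxd10, found only in the soft tissue sarcomas, was at least 10.7-fold higher there than in NG2 cells (adjusted p = 0.076).

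**Figure D4:**
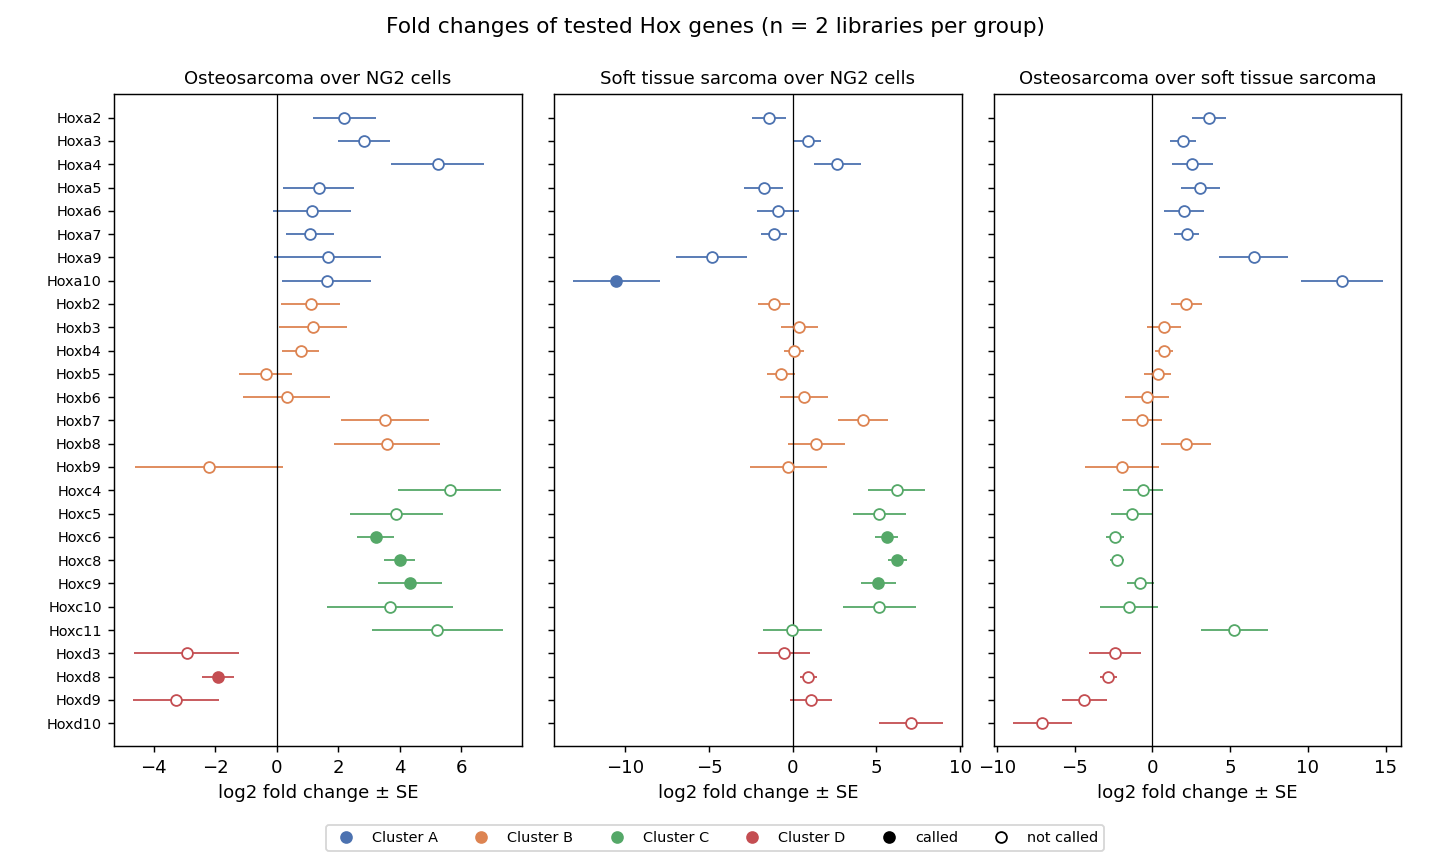
Log2 fold changes with standard errors of tested Hox genes in the 3 comparisons (edgeR, 2 libraries a group); filled points are called at an adjusted p under 0.05. Cluster C lies right of 0 in both comparisons with NG2 cells, apart from Hoxc11 at -0.03 in the second. In osteosarcoma over soft tissue sarcoma all plotted genes of cluster A lie right of 0 and all 4 of cluster D left of it. Of these 4, Hoxd10 had counts only in the soft tissue sarcomas.

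Markers of other cells moved with the NG2 group. B lymphocyte markers summed to 44.4 and 5.87 CPM in the osteosarcomas, 75.8 and 44.1 CPM in the soft tissue sarcomas, and 7170 and 9870 CPM in the NG2 cells, and all 5 were called lower in each tumour group; Ms4a1 had 0 counts in both osteosarcomas. T lymphocyte markers, 4 of 4 called lower in each tumour group, summed to 2.6 and 2.7 CPM in the osteosarcomas, 17.6 and 11.9 CPM in the soft tissue sarcomas, and 325 and 494 CPM in the NG2 cells. Granulocyte markers summed to 0.701 and 2.06 CPM in the osteosarcomas, 8.57 and 13.3 CPM in the soft tissue sarcomas, and 49.1 and 2490 CPM in the NG2 cells, with 4 of 4 called lower in osteosarcoma and 2 of 4 in soft tissue sarcoma. Schwann cell markers summed to 10.2 and 21.8 CPM in the osteosarcomas, 8.29 and 10.2 CPM in the soft tissue sarcomas, and 259 and 335 CPM in the NG2 cells, with 2 of 4 called lower in osteosarcoma and 4 of 4 in soft tissue sarcoma. Endothelial markers, 2 of 4 called lower in each tumour group, summed to 88.2 and 236 CPM in the osteosarcomas, 143 and 107 CPM in the soft tissue sarcomas, and 614 and 1040 CPM in the NG2 cells. In the satellite cell list, Pax7 was called lower in both tumour groups and Myf5 in soft tissue sarcoma. The osteoblast markers went the other way: 6 of 6 were called higher in osteosarcoma than in NG2 cells, where Ibsp had 0 counts. Of the osteoclast markers 4 of 4 were called higher in osteosarcoma, at 883 and 18900 CPM in the osteosarcomas against 70.7 and 95.1 CPM in the NG2 cells. Called higher in osteosarcoma and in soft tissue sarcoma were also 2 and 2 of 4 macrophage markers, 2 and 1 of 3 chondrocyte markers, and 1 and 1 of 4 fibroblast markers. In soft tissue sarcoma, Col1a1 of the osteoblast markers was called higher and Alpl lower, and Ctsk of the osteoclast markers was called higher. The part of this cell mixture in the Hox values was not tested, and in bulk RNA fewer cells of a type cannot be told apart from less RNA per cell. The sequencing lane in the deposited names also differed by group, so lane and group cannot be told apart.

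The third comparison, osteosarcoma with soft tissue sarcoma, set tumours of bone against tumours of the subcutis. The edgeR test called 0 of 28 members, where 0.142% of all tested genes were called (0.0578% higher and 0.0841% lower), so no Hox gene was shown to differ by that test. At an unadjusted p under 0.05 there were 11 members, where 15.9% of all tested genes had such a p. DESeq2's Wald test called 7 of the 28 members, beside 1916 of all 19024 tested genes. The largest fitted difference was in Hoxa10 (edgeR adjusted p = 0.149), with 86 and 737 counts in the osteosarcomas against 0 in both soft tissue sarcomas. Taking 3 counts for the soft tissue sarcomas instead of none, its mean level was at least 414-fold higher in osteosarcoma. That mean rests mostly on the lumbar spine tumour (1.63 and 26.2 CPM), so the bound does not hold for the tibia tumour alone. Hoxd8 had a log2 fold change of -2.83 ± 0.54 (adjusted p = 0.103), Hoxc8 of -2.26 ± 0.45 (adjusted p = 0.113) and Hoxc6 of -2.40 ± 0.57 (adjusted p = 0.149). In these 3 genes both osteosarcomas lay below both soft tissue sarcomas.

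The same comparison by cluster separated A and D. In cluster A the osteosarcomas were above both soft tissue sarcomas in 9 of 9 tested genes, with a median log2 fold change of 2.58; over all tested genes this held for 24.5%, with a median of 0.03. In cluster D they were below in 4 of 4, with a median of -3.60, where 25.8% of all tested genes were below. Hoxd10, 1 of these 4, had counts only in the soft tissue sarcomas. It passed the filter on low counts through them alone and could only lie below, so it adds nothing to that count. In cluster C, Hoxc11 was above in both osteosarcomas, Hoxc5, Hoxc6 and Hoxc8 were below, and the median was -1.29. In cluster B, 4 of 8 were above and none below, with a median of 0.54. Hoxc11 and, in cluster B, Hoxb8 would not have passed the filter on low counts without the osteosarcomas, so they add nothing here. Genes of a cluster lie side by side and are not independent, so these counts describe 4 tumours and carry no test. Other leading members had wide errors: Hoxa5 was at 3.09 ± 1.23 (adjusted p = 0.305), Hoxa7 at 2.20 ± 0.80 (adjusted p = 0.269), Hoxc9 at -0.77 ± 0.89 (adjusted p = 0.737), Hoxc10 at -1.50 ± 1.86 (adjusted p = 0.759) and Hoxd9 at -4.37 ± 1.46 (adjusted p = 0.236). Hoxd10 was at least 10.9-fold lower in osteosarcoma (adjusted p = 0.225).

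The osteosarcomas of the tibia and the lumbar spine are 1 library each, so their difference has no replicate check and no test. Among the 29 members with at least 10 counts in 1 of them, 6 were at least 4-fold apart, all higher in the lumbar spine. Hoxa9 was 23.1-fold higher in the tumour of the lumbar spine than in that of the tibia (95% counting interval 16.9 to 32.3), at 529 against 43 counts. Hoxa10 was 16.1-fold higher (interval 12.8 to 20.3), at 737 against 86 counts. With 3 counts in place of 0 in the tibia, Hoxa11 was at least 18.8-fold higher, Hoxa13 at least 10-fold, Hoxc13 at least 9.38-fold and Hoxd3 at least 6.88-fold. Of these 6 genes, 5 carry numbers from 9 to 13, and 9 members of these numbers had at least 10 counts in the lumbar spine tumour. Among the others of the 9, Hoxb9 (1.41-fold) and Hoxc10 (2.72-fold) were also higher in the lumbar spine. Hoxc9 (1.53-fold) and Hoxc11 (3.26-fold) were higher in the tibia. The 6 genes were 20.7% of the 29 members. Of the 17204 tested genes with at least 10 counts in 1 of these libraries, 15.9% were 4-fold apart in either direction. The lumbar spine was higher in 10.1% and the tibia in 5.8%. Hoxa11, Hoxa13 and Hoxc13 had not passed the filter on low counts. Genes like them are missing from the 15.9%, so the shares cover unlike sets of genes and cannot be compared directly.

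The other members differed less between the bone sites. Hoxa5, Hoxa6, Hoxa7, Hoxb2, Hoxb4, Hoxc4, Hoxc6 and Hoxc8 stood close together in the tibia and lumbar spine tumours, as their values above show. Hoxb7 and Hoxc11 were higher in the tibia by 3.09-fold (interval 2.32 to 4.18) and 3.26-fold (2.4 to 4.53), and Hoxc10 was higher in the lumbar spine by 2.72-fold (2.26 to 3.27). Beside these values, Evx1, the homeobox gene next to Hoxa13, had 0 CPM in the tibia tumour and 5.01 CPM in that of the lumbar spine. Isl1, a hindlimb and motor neuron factor, had 12.5 CPM in the tibia tumour and 0.284 CPM in that of the lumbar spine. Meis2, a cofactor of Hox proteins, had 0.0379 CPM in the tibia tumour and 14.7 CPM in that of the lumbar spine. Skeletal muscle fibre markers summed to 4.57 CPM in the tibia tumour and 916 CPM in the lumbar spine tumour, and osteoclast markers to 883 and 18900 CPM. The part of these other cells in the Hox difference was not tested.

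The 2 soft tissue sarcomas shared a site label, subcutaneous tissue, yet 10 of 24 members with enough counts were at least 4-fold apart. That is 41.7%, beside 7.64% of tested genes with enough counts (4.92% higher in soft tissue sarcoma 1 and 2.72% in soft tissue sarcoma 2). Soft tissue sarcoma 1 was higher in Hoxa2, Hoxa5, Hoxa6, Hoxa7 and Hoxc4, and soft tissue sarcoma 2 in Hoxb6, Hoxb7, Hoxb9, Hoxc9 and Hoxc10. Hoxc10 was 338-fold higher in soft tissue sarcoma 2 (interval 164 to 842), and Hoxa6 was 23.9-fold higher in soft tissue sarcoma 1 (interval 8.02 to 117). By contrast, Hoxc5, Hoxc6, Hoxc8, Hoxd8 and Hoxd9 stood close together in the 2 tumours. Between the 2 NG2 libraries, 8 of 24 members were at least 4-fold apart, or 33.3%. Among tested genes with enough counts it was 13.8% (6.92% higher in NG2 cells 1 and 6.83% in NG2 cells 2). Hoxb13, 1 of the 8, had not passed the filter on low counts, and genes like it are missing from the 13.8%. Of the 8 members, 6 (Hoxa10, Hoxb2, Hoxb3, Hoxb6, Hoxb9 and Hoxb13) were higher in NG2 cells 2, the library with the higher granulocyte marker sum. Hoxb7 and Hoxc5 were higher in NG2 cells 1. The part of the granulocytes was not tested.

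Hox proteins bind DNA with cofactors of the TALE family, and 9 of these (the Pbx, Meis, Pknox and related genes) were all tested. Meis1 rose in osteosarcoma, at 75.4 and 41.6 CPM in the osteosarcomas against 6.1 and 14.6 CPM in the NG2 cells (log2 fold change 2.50, adjusted p = 0.0274, and up to 0.0847 with 1 library left out). Meis3 rose as well, at 24.7 and 22.1 CPM in the osteosarcomas against 7.59 and 4.63 CPM in the NG2 cells (1.94, adjusted p = 0.0352, and 0.0653 to 0.112 with 1 library left out). The other 7 did not pass, so that 22.2% of the 9 were called, near the 21.5% of all tested genes. The median log2 fold change of the 9 was 0.96 in osteosarcoma and 0.49 in soft tissue sarcoma. In soft tissue sarcoma against NG2 cells 0 of 9 passed by edgeR, where 19.3% of all tested genes did. Of the 9, 4 had an unadjusted p under 0.05, where 37.5% of all tested genes had such a p. Of 5 caudal and Evx homeobox genes, none had enough counts to be tested.

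Polycomb complexes keep Hox genes silent, and trithorax proteins and the H3K27 demethylases keep them active. Of 16 polycomb genes, 1 rose and 7 fell in osteosarcoma, and 1 rose and 5 fell in soft tissue sarcoma, each against the same NG2 libraries, with median log2 fold changes of 0.17 and -0.48. These calls were 50% and 37.5% of the list, beside 21.5% and 19.3% of all tested genes. The gene that rose was Cbx2, a chromobox subunit. Its level was 6.16 and 4.76 CPM in the osteosarcomas and 4.68 and 5.26 CPM in the soft tissue sarcomas, with 0 counts in both NG2 libraries. Cbx2 was at least 145-fold higher in osteosarcoma and at least 132-fold higher in soft tissue sarcoma. It passed the filter on low counts through the tumours alone and could only lie higher there, so it adds nothing to these shares. Those that fell in osteosarcoma included Ezh1, Eed, Rnf2, Cbx7, Phc3 and Jarid2. Jarid2, which guides PRC2 to its targets, was at 36.2 and 64.2 CPM in the osteosarcomas, 82.3 and 56.5 CPM in the soft tissue sarcomas, and 281 and 204 CPM in the NG2 cells. Of 10 trithorax and demethylase genes, 3 fell in osteosarcoma (Kmt2a, Kdm6a and Kdm6b), while in soft tissue sarcoma Ash2l rose and Kdm6a and Kdm6b fell; the medians were 0.27 and -0.33. That is 30% of the list in each comparison, beside the same 21.5% and 19.3% of all tested genes. Kdm6b, an H3K27 demethylase, was at 43.4 and 42.6 CPM in the osteosarcomas, 45 and 55.2 CPM in the soft tissue sarcomas, and 391 and 365 CPM in the NG2 cells. Between osteosarcoma and soft tissue sarcoma, edgeR called 0 genes of the cofactor, polycomb and trithorax lists. Of these lists 1, 2 and 0 genes had an unadjusted p under 0.05, where 15.9% of all tested genes had such a p.

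Among 10 limb position factors, 6 were tested; 2 of them rose in osteosarcoma and 3 in soft tissue sarcoma against NG2 cells (33.3% and 50%, beside 21.5% and 19.3% of all tested genes called), and none was called lower. Shox2, a gene of the proximal limb skeleton, was at 39.6 and 104 CPM in the osteosarcomas, 6.26 and 3.74 CPM in the soft tissue sarcomas, and 0.471 and 0.527 CPM in the NG2 cells, and rose in osteosarcoma (log2 fold change 7.16, adjusted p = 0.00552) and in soft tissue sarcoma (3.32, adjusted p = 0.0202). Gli3, a mediator of hedgehog signalling in the limb bud, was at 53.9 and 30 CPM in the osteosarcomas, 72.5 and 75 CPM in the soft tissue sarcomas, and 4.46 and 9.44 CPM in the NG2 cells, and rose in osteosarcoma (2.59, adjusted p = 0.0204) and in soft tissue sarcoma (3.41, adjusted p = 0.0138). Emx2, which helps to form the scapula, rose in soft tissue sarcoma (7.8 and 7.45 CPM). It was at least 203-fold higher there than in the NG2 cells with their 0 counts, and the osteosarcomas held 0 and 0.107 CPM. Emx2 passed the filter on low counts through the soft tissue sarcomas alone. It could only lie higher there, so it adds nothing to the 3 genes that rose or to the 50%. The limb bud factors Tbx4 (hindlimb) and Tbx5 (forelimb) were highest in single NG2 libraries. Tbx4 was at 0.322 and 0 CPM in the osteosarcomas, 0 in both soft tissue sarcomas, and 2.72 and 0.16 CPM in the NG2 cells, and did not pass (adjusted p = 0.334 in osteosarcoma and 0.104 in soft tissue sarcoma). Tbx5, not tested, had 0 counts in all 4 tumour libraries and 2 and 95 counts in the NG2 cells.

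Other genes inside the clusters are mostly noncoding, and 11 of 23 were tested. Hoxaas2, Gm15050, Gm11536 and Hoxb3os were called higher in osteosarcoma than in NG2 cells, and Gm15050 and Gm11536 in soft tissue sarcoma. These were 36.4% of the 11 in osteosarcoma, where 21.5% of all tested genes were called, and 18.2% in soft tissue sarcoma, where 19.3% were. Hoxaas2, Gm15050 and Gm11536 had 0 counts in both NG2 libraries. Hoxaas2 passed the filter on low counts through the osteosarcomas alone, and Gm15050 and Gm11536 through the tumours alone. All of them could only lie higher in the tumours, so they add nothing to these shares. Hoxaas2 stood at 2.31 and 0.96 CPM in the osteosarcomas, 0.168 and 0.135 CPM in the soft tissue sarcomas and 0 in the NG2 cells. Exons of Hoxaas2 overlap those of Hoxa3, and exons of Hoxb3os overlap those of Hoxb2 and Hoxb3. The strand setting of the counting is not given in the sources used here, so reads of Hoxaas2 and Hoxb3os cannot be told apart from those Hox genes with certainty. Gm15050 and Gm11536 share no annotated exon sequence with a Hox gene. Hotair, a noncoding gene of cluster C, had 39 counts in the tibia osteosarcoma, 0 in that of the lumbar spine, and 0 and 1 in the soft tissue sarcomas. Haglr, a noncoding gene of cluster D, had 23 and 10 counts in the soft tissue sarcomas and 0 in the other 4 libraries, the same libraries that held Hoxd10. Of 11 flanking genes, 9 were tested. Mtx2 and Atp5g1 rose and Skap1, a T cell adaptor, fell in osteosarcoma, while Cbx5, Calcoco1, Mtx2 and Atp5g1 rose in soft tissue sarcoma, which makes 33.3% and 44.4% of the 9, beside 21.5% and 19.3% of all tested genes. Between osteosarcoma and soft tissue sarcoma, edgeR called 0 of the limb factors, 0 of the cluster genes and 0 of the flanking genes. At an unadjusted p under 0.05 there were 3, 4 and 4 of them, where 15.9% of all tested genes had such a p. Of the 22 calls in osteosarcoma in all lists of cofactors, regulators, limb factors, cluster genes and flanking genes, 4 (Kdm6b, Cbx2, Shox2 and Mtx2) held with each of the 6 libraries left out in turn, and of the 18 in soft tissue sarcoma none did.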

How the data were processed

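Polyadenylated RNA of 6 samples was measured; per the labels' protocols, about 10 ng of total RNA was copied with an oligo(dT) primer and template switching and amplified in 20 PCR cycles. The authors deposited 1 table per library with the raw count of reads for each Ensembl gene ID. Tools named per the submitters' processing notes were STAR, HTSeq, DESeq2, cutadapt with Trim Galore, and FastQC, on GRCm38 (mm10); versions, the strand setting and the annotation release are not given in the sources used here. Reads assigned to no gene were 19.5% to 33.2% of a library and ambiguous reads 2.57% to 3.22%; both were left out. GENCODE M21 held 36639 of the 38561 IDs and gave symbols, positions and exon lengths.

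The counts were tested with edgeR 4.0.16 (R 4.3.3): TMM scaling, a filterByExpr filter on low counts with min.count 10 and min.total.count 15, which kept 19024 genes, and quasi-likelihood F tests in 1 model of 6 libraries without covariates (residual df 3; common dispersion 0.334). A gene was called when its p, adjusted over all 19024 by Benjamini-Hochberg, was under 0.05. A standard error is the log2 fold change divided by the square root of F. A fold against 0 counts uses 3 counts over the group. Intervals for 2 libraries are 95% exact binomial intervals and cover counting error only. Permuting 2 against 2 libraries gives a p of at least 0.333. The scripts were tested on simulated counts.

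Alternatives were DESeq2 1.42.0, its size factors in edgeR, no filter, min.count 50, a replicate block, only the compared groups, each library left out and, chosen after seeing the data, other scalings of the cluster shares. The members, gene lists and tests were chosen with earlier results of these data known. Tested values were given for members called in any comparison, the 3 highest per cluster and paralogues 10 and 11; between tibia and lumbar spine, members at least 4-fold apart with 10 counts in 1 library are named, and others named there were chosen after their values were seen. A Hox gene and a polycomb gene that enter the counts and sums are not reported here.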

Additional observations from a re-analysis of the deposited data

How the results depend on the processing

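Counts of called genes depended on the tool and on single libraries. For osteosarcoma against NG2 cells, 5 Hox genes of 4086 genes were called; DESeq2 called 10 of 6894, the fit with the compared groups only 2 of 2083, and omission of 1 library gave 1 to 5 Hox genes and 1278 to 3429 genes. For soft tissue sarcoma against NG2 cells, 4 of 3671 were called; DESeq2 called 9 of 6439, and omission of 1 library gave 0 to 4 and 0 to 4694. For osteosarcoma against soft tissue sarcoma, 0 of 27 were called; DESeq2 called 7 of 1916, no filter gave 1 (Hoxa10) of 409, min.count 50 gave 80 genes, the compared groups only 0 genes (15 Hox genes at an unadjusted p under 0.05), and omission of 1 library 0 Hox genes and 0 to 315 genes. Where omission leaves a group with 1 library, that library is assumed to vary like the others. With the replicate number as a block, the 3 comparisons called 3, 3 and 0 Hox genes and 2660, 2209 and 8 genes. Deviations of same-numbered libraries were nearly uncorrelated (correlations 0.049, -0.00277 and -0.0864). Such values cannot show whether those libraries shared an animal or a preparation, which was not tested. The cause of these differences was not tested.

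No called value changed sign. Among values not called, signs turned when 1 library was left out. For soft tissue sarcoma against NG2 cells, the log2 fold change ranged from -4.46 to 0.08 in Hoxa6, -1.87 to 0.77 in Hoxb2, -0.49 to 0.95 in Hoxb4, -2.16 to 6.20 in Hoxc10 and -5.08 to 4.95 in Hoxc11, which was at 0.06 in DESeq2. For osteosarcoma against soft tissue sarcoma, it ranged from -1.75 to 0.72 in Hoxb7, -1.56 to 1.06 in Hoxc9 and -2.50 to 5.86 in Hoxc10, and for osteosarcoma against NG2 cells from -1.44 to 3.25 in Hoxa10. The omitted library was soft tissue sarcoma 2 for Hoxa6, Hoxb7, Hoxc9 and both turns of Hoxc10, and osteosarcoma 2 for Hoxa10. The share of cluster C with plain CPM was 23.3% and 19.5% in the osteosarcomas, 58.7% and 70.3% in the soft tissue sarcomas, and 5.58% and 2.46% in the NG2 cells. Groups of 2 libraries, low counts of most Hox genes and reads of overlapping genes limit all these values.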
